A study of Mus musculus with 6 samples.

Results

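Rab GTPases and the effectors that tie secretory granules to the plasma membrane were followed in jejunal crypt epithelium of mice labelled Sox9 deficient. The members were every probe set whose annotation gave a single symbol of the form Rab with a number and an optional letter or digit, or Sytl1 to Sytl5, together with Syt7, Unc13d, Myrip and Mlph. They came to 66 genes of the 18193 that had a probe set of their own, and to 144 of the 45037 probe sets that were not array controls. The family was picked after Rab27b had been seen lower in the mutants. The Rab27b difference between the groups is therefore only described here, and nothing is read from its p-values. Gene expression was measured in Sox9 deficient mice (KO 1 to KO 3) and in wild type littermate controls (WT 1 to WT 3), all C57BL/6 and 3 months of age, with 1 biotin-labelled single-colour Affymetrix array of total RNA from jejunum crypts for each mouse. The labels name neither the Sox9 allele nor a Cre driver, and they do not say which mutant and control shared a litter. The values are log2 GCRMA intensities, a scale on which a difference of 1 is a doubling of signal, and probe sets averaging under 4 over the 6 mice, near the floor of the array, were not tested.

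Rab proteins are small GTPases that switch between a membrane-bound GTP form and a cytosolic GDP form, and each marks particular membranes. In exocrine cells, Rab27 and Rab3 proteins sit on mature secretory granules and recruit effectors that move, dock and prime the granules for release. Paneth cells, at the crypt base, store antimicrobial proteins in such granules, while goblet cells store mucins and enteroendocrine cells store hormones.

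Of the member probe sets 80, from 46 genes, reached the mean of 4 and were tested with the rest of the array, while 64 did not. In limma's moderated test across 18108 probe sets, 0 of these 80 passed an adjusted p of 0.05, where 0.011% of all tested probe sets did. At an unadjusted p under 0.05 there were 7 member probe sets, beside 3.62% of all probe sets. All 7 were lower in KO and 0 higher, beside 1.81% of all probe sets lower and 1.81% higher. The groups did not overlap on 17 member probe sets (9.12% of all tested). All KO mice lay below all WT mice on 13 member probe sets (4.03% of all tested) and above them on 4 (5.09% of all tested). Since Rab27b's difference led to this choice of genes, nothing is read from these counts. The median difference, KO minus WT, was -0.07 over the 80 member probe sets and 0.03 over all tested probe sets, and 71 of the 80 differed by less than 0.5 in either direction. With 3 mice on each side, the smallest p that permuting the mice could give is 0.1 (exact, two-sided).

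The 3 Sox9 probe sets disagreed. On 1451538_at the KO mice read 2.44, 2.75 and 2.42 and the WT mice 7.61, 5.96 and 5.84, without overlap. On 1424950_at the KO mice read 5.33, 6.34 and 5.76 and the WT mice 6.23, 5.38 and 2.68, so the groups overlapped with the higher mean in KO. The last, 1433889_at, lay under the filter, at 3.16 to 3.28 in KO mice and 3.18 to 3.53 in WT mice. Which of these lie in the deleted stretch is unknown here. The Y-linked genes averaged 2.64 to 2.74 on the KO arrays, and 5.41, 5.62 and 2.66 on WT 1, WT 2 and WT 3, so WT 3 alone among the controls matched the mutants. The 3' minus 5' difference of the Gapdh control probes, which grows as RNA is degraded, was 0.37 to 0.91 in KO mice and 0.61, 0.65 and 1.75 on WT 1, WT 2 and WT 3. Of the stromal, vascular, muscle and nerve markers 11 were on the array and each stayed under the filter, at 3.79 or less, whereas the 10 epithelial markers were all tested.

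Rab27b, the Rab27 form found on granules of many secretory epithelia and platelets, was lower in KO on each of its 3 probe sets above the filter. Probe set 1417214_at read 7.53, 7.61 and 7.22 in KO 1, KO 2 and KO 3, against 8.31, 8.19 and 8.33 in WT 1, WT 2 and WT 3. Probe set 1417215_at read 5.19, 5.50 and 5.60 in the KO mice, against 6.42, 6.45 and 6.35 in the WT mice. On 1439610_at the KO mice read 6.59, 6.97 and 6.66 and the WT mice 7.73, 7.45 and 7.89. All 3 KO mice stood below all 3 WT mice each time, and the gap between the groups was wider than the range within either. The differences were -0.82 ± 0.18, -0.98 ± 0.18 and -0.95 ± 0.20 (SE), which is 1.77, 1.97 and 1.93 times more signal in WT. The remaining Rab27b probe set, 1443764_x_at, read 2.64 to 2.89 in KO mice and 2.82 to 2.84 in WT mice and lay near the floor.

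Averaged over the 3 probe sets, Rab27b differed by -0.92, and each array left out in turn gave -0.99 to -0.86. Adjusting for Y-linked signal gave -0.99, and adjusting for the Gapdh difference gave -0.90. WT 3, the control without Y-linked signal, lay 0.52 above the mean of the 6 mice, against 0.49 in WT 1 and 0.36 in WT 2. KO 1, KO 2 and KO 3 lay at -0.56, -0.30 and -0.51. WT 3 alone among the controls matched the KO arrays in Y-linked signal, and the part of sex in the difference was not tested. Rab27a, the paralogue that serves lytic granules and melanosomes, had 4 probe sets, none of which reached the filter. On the Rab27a probe set with the highest mean, 1429123_at, KO mice read 3.38, 3.14 and 3.32 and WT mice 3.70, 3.84 and 3.18, so the groups overlapped.

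**Figure D1:**
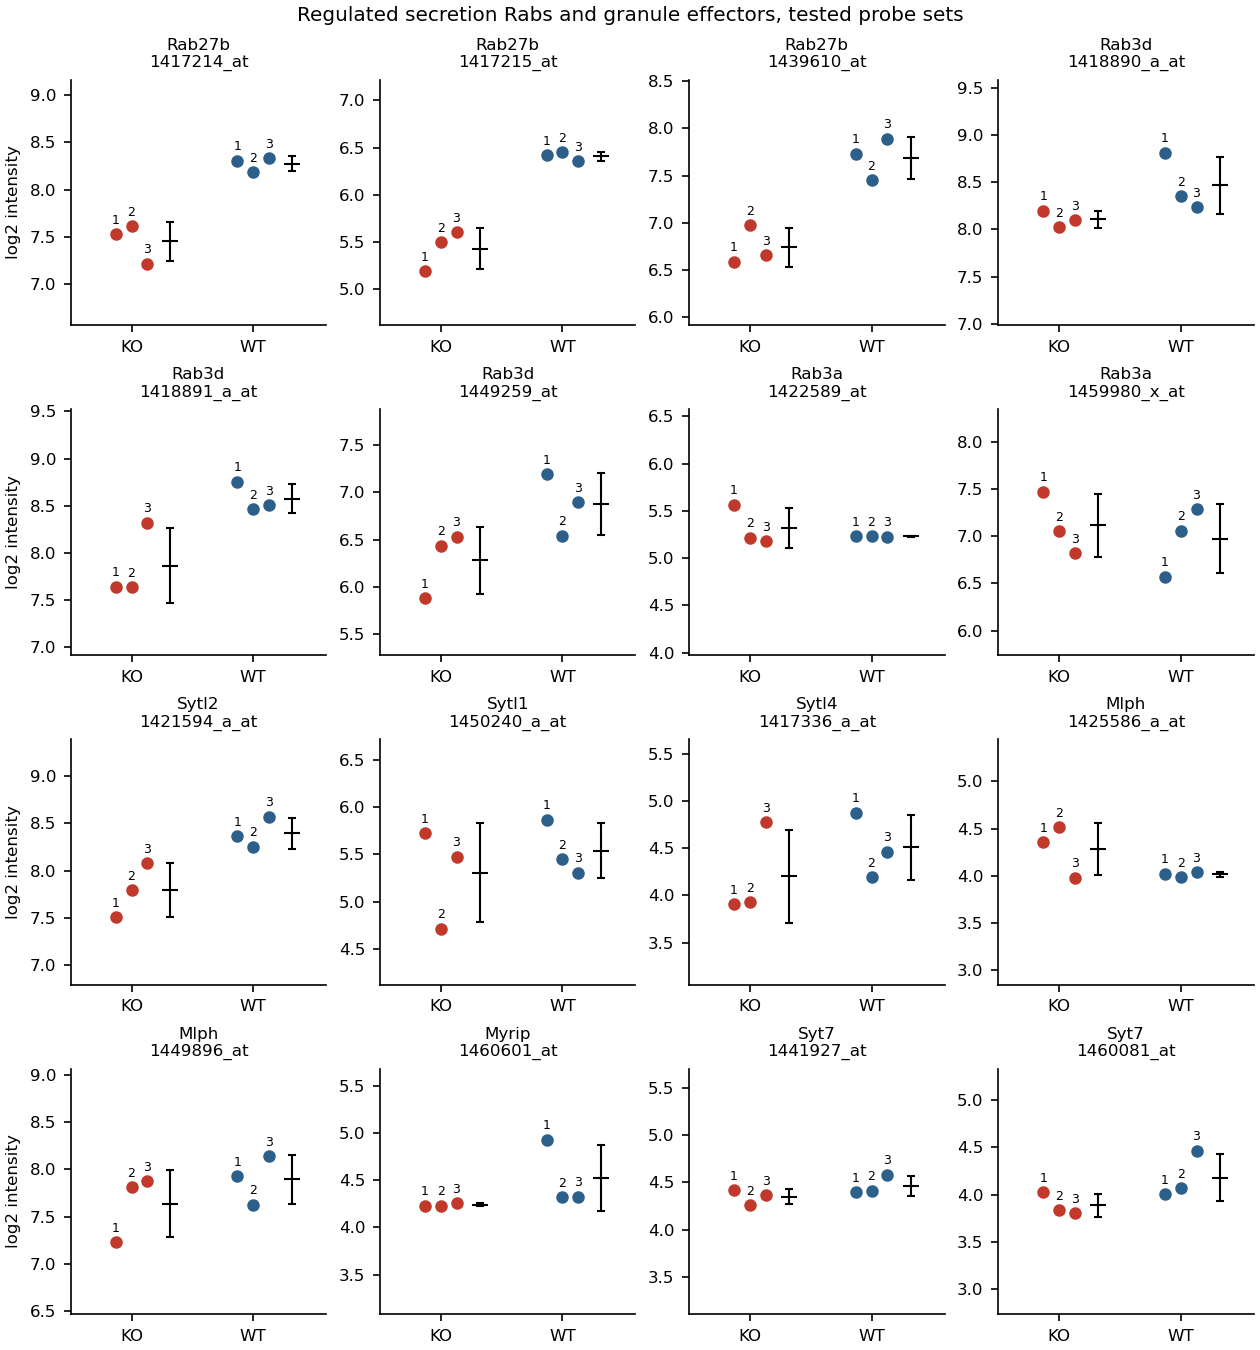
Log2 intensity (vertical axis) of the 16 tested probe sets of regulated secretion Rabs and granule effectors, with KO mice on the left and WT mice on the right; numbers are the mouse, bars the mean ± SD of 3 mice, and every panel spans the same number of log2 units. The KO points lie below the WT points on all 3 probe sets of Rab27b, all 3 of Rab3d, and on Sytl2 and Myrip, and the groups overlap in the other 8 panels.

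Rab3d, the Rab3 form of zymogen granules in exocrine glands, also had all KO mice below all WT mice on each of its 3 tested probe sets. Probe set 1418891_a_at read 7.64, 7.63 and 8.32 in KO 1 to KO 3, against 8.75, 8.47 and 8.51 in WT 1 to WT 3 (difference -0.71 ± 0.24, SE). Probe set 1449259_at read 5.88, 6.44 and 6.53 in KO mice, against 7.19, 6.54 and 6.90 in WT mice (-0.59 ± 0.26, SE), with KO 3 and WT 2 almost level. On 1418890_a_at the KO mice read 8.20, 8.02 and 8.10 and the WT mice 8.81, 8.35 and 8.23 (-0.36 ± 0.21, SE). KO 3 was the mutant nearest to the controls on average, and WT 1 was the highest control on all 3 probe sets. The third of these differences leaned most on single arrays, being -0.19 without WT 1 and -0.15 after adjusting for Y-linked signal, and 1449259_at gave -0.39 without KO 1. Rab27b and Rab3d were the only genes, among 22 members with at least 2 tested probe sets, on which every such probe set kept the groups apart. Rab27b was chosen on this contrast, and the share over all genes of the array was not counted, so nothing is read from this.

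Rab3a overlapped between the groups on both of its probe sets. Rab3a, the Rab of synaptic vesicles and endocrine granules, read 5.56, 5.22 and 5.18 in KO mice and 5.23 in each WT mouse on 1422589_at (difference 0.09 ± 0.18, SE). Its other probe set, 1459980_x_at, read 7.47, 7.05 and 6.82 in KO mice, against 6.57, 7.06 and 7.29 in WT mice (0.14 ± 0.27, SE). An x in a probe set's name marks probes that may also match other transcripts. Rab3b (1 probe set), Rab3c (5), Rab26 (1) and Rab37 (2) all lay under the filter, so a difference in them was not detectable on these arrays.

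Among the effectors, Sytl2 had the largest difference. Sytl2 encodes a synaptotagmin-like protein that binds Rab27 on granules and docks them at the plasma membrane. It read 7.51, 7.79 and 8.08 in KO 1 to KO 3, against 8.36, 8.25 and 8.57 in WT 1 to WT 3, with no overlap, and the difference was -0.60 ± 0.21 (SE), or 1.52 times more signal in WT. Leaving out single arrays gave -0.74 to -0.46. Myrip, which links Rab27 to myosin on granules, read 4.23, 4.23 and 4.26 in KO mice, against 4.93, 4.32 and 4.32 in WT mice (-0.29 ± 0.22, SE). That difference came mostly from WT 1 and was -0.08 without it, with values only just over the filter.

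The remaining effectors overlapped between the groups. Mlph, melanophilin, which joins Rab27 to myosin Va, read 7.23, 7.81 and 7.87 in KO mice and 7.92, 7.62 and 8.14 in WT mice on 1449896_at (-0.26 ± 0.25, SE; -0.05 without KO 1), and its other probe set, 1425586_a_at, differed the other way (0.27 ± 0.20, SE). Sytl1, another synaptotagmin-like Rab27 effector, read 5.72, 4.71 and 5.48 in KO mice, against 5.87, 5.45 and 5.31 in WT mice (-0.24 ± 0.31, SE). Its direction turned to 0.06 without KO 2. Sytl4, the granuphilin of endocrine granules, read 3.91, 3.93 and 4.77 in KO mice and 4.88, 4.20 and 4.46 in WT mice (-0.31 ± 0.31, SE), which was -0.13 without WT 1 and -0.59 without KO 3. Syt7, a calcium sensor for granule and lysosome release, differed by -0.29 ± 0.20 and -0.12 ± 0.16 (SE) on its 2 tested probe sets, all near the filter. Unc13d, the Munc13-4 priming factor that Rab27 recruits, read 3.42 to 3.47 in KO mice and 3.41 to 3.68 in WT mice and was not tested. Across the regulated secretion Rabs and these effectors together, 16 probe sets of 9 genes were tested, 13 differences were negative, and the median was -0.30. Of all tested probe sets 46.1% had a negative difference. The 16 include the 3 Rab27b probe sets, whose difference led to this choice of genes, so nothing is read from this count or median.

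Of the other 37 tested Rab genes, with 64 probe sets, the median difference was -0.04, with 37 probe sets negative and 27 positive. Rab32, which serves lysosome-related organelles and mitochondria, had the largest negative difference among them. It read 6.12, 4.61 and 6.37 in KO 1 to KO 3, against 6.90, 7.27 and 6.65 in WT 1 to WT 3, without overlap, a difference of -1.24 ± 0.48 (SE). The value was uneven among the mutants, and without KO 2 it was -0.70. Rab15, an endosomal Rab first described in brain, read 6.68, 6.67 and 6.79 in KO mice, against 7.74, 7.22 and 7.71 in WT mice. The KO mice were tightly grouped and all below the controls, a difference of -0.84 ± 0.20 (SE), or 1.79 times more signal in WT. It ran from -1.01 to -0.75 over the single arrays left out.

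Promoter windows were examined for Rab3d, Myrip, Rab15 and Rab32, which had all KO mice below all WT mice on every tested probe set and had a window in RefSeq (GRCm38.p6, 250 bases before to 50 after a start, written along the gene's strand). They were searched on both strands for the SOX core letters ACAAAG and ACAAT and for the E-box letters CATATG and CAGCTG, the last of which secretory bHLH factors such as Atoh1 can bind. Of 32851 windows of the same length, 18.7% held ACAAAG, 31.0% ACAAT, 3.91% CATATG and 16.3% CAGCTG. The Rab3d, Myrip and Rab32 windows held none of the 4. Rab27b and Sytl2, whose groups did not overlap either, were not searched. Rab15 had 4 windows, 1 with CAGCTG, 1 with ACAAAG and 2 with none. The Rab3d window and the 2 Rab15 windows with a match are printed here, with the matched letters in capitals. The letters were chosen with the array results known. These are matches of letters only, and the arrays do not measure binding.
Rab3d, chr9:21918134-21918433, minus strand: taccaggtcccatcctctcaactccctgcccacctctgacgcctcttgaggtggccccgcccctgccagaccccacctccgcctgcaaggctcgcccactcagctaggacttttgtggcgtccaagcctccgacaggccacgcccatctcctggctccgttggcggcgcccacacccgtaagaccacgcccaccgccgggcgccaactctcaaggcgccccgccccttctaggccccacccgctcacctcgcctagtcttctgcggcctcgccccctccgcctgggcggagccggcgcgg
Rab15, chr12:76822475-76822774, minus strand: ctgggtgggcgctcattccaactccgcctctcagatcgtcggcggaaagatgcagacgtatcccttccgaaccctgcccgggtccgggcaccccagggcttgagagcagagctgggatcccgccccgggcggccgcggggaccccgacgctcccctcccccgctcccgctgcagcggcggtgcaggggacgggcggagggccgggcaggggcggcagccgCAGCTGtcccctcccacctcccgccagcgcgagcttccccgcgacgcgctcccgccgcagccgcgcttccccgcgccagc
Rab15, chr12:76813807-76814106, minus strand: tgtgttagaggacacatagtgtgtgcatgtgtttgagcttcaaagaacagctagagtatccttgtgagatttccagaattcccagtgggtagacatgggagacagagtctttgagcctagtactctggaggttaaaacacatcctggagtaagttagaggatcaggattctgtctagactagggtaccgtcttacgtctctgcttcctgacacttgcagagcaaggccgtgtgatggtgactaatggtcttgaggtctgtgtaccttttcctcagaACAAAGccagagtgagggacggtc

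Rabs of general transport routes mostly overlapped between the groups. Rab11a, which runs apical recycling in enterocytes, read 12.19, 11.87 and 12.20 in KO mice and 12.26, 12.60 and 11.70 in WT mice on 1449256_a_at (-0.10 ± 0.27, SE). It differed by -0.29 ± 0.21 (SE) on 1434549_at, where the groups did not overlap but KO 3 and WT 3 were level at 9.79. The direction on 1449256_a_at turned with WT 2 left out (0.11) and after adjusting for Y-linked signal (0.39). Rab11b had 3 tested probe sets, of which 1439508_at kept all KO mice below all WT mice (-0.31 ± 0.19, SE). The groups overlapped on 1423448_at (0.13 ± 0.17, SE) and 1435253_at (0.01 ± 0.21, SE), which both had higher signal than 1439508_at. The Rab11a difference on 1434549_at was -0.15 without KO 1, and that of Rab11b on 1439508_at was -0.19 without WT 3. Rab25, an epithelial relative of Rab11a, read 12.44, 11.85 and 11.89 in KO mice and 11.96, 11.73 and 11.79 in WT mice (0.23 ± 0.22, SE; 0.05 without KO 1). Rab17, an epithelial Rab of transcytosis, differed by -0.15 on 1422178_a_at (-0.02 without KO 2) and by 0.26 on 1450516_a_at (-0.13 without WT 3). Rab8a, which sends cargo to the apical membrane, read 9.67, 9.68 and 9.94 in KO mice, against 9.63, 9.65 and 9.13 in WT mice (0.30 ± 0.21, SE). On this probe set, 1418692_at, KO 1 and KO 2 were almost level with WT 1 and WT 2. Without WT 3 the difference was 0.13. The other tested Rab8a probe set, 1440620_at, differed by -0.01 ± 0.18 (SE) with overlapping groups. Rab10, of basolateral and recycling transport, differed by 0.03, 0.03 and -0.16, and Rab14, of Golgi to endosome transport, by -0.84 to -0.03 on 6 tested probe sets, each with overlapping groups.

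On the endocytic route, Rab4a, which marks rapid recycling from early endosomes, read 10.29, 9.85 and 9.84 in KO mice and 9.60, 9.79 and 9.67 in WT mice on 1418341_at (0.31 ± 0.20, SE), with the KO mice all above the controls. KO 1 carried much of that gap (0.16 without KO 1), and the other tested Rab4a probe set overlapped (0.09 ± 0.22, SE). Rab5a of early endosomes differed by -0.18 ± 0.19 (SE), and Rab7 of late endosomes by -0.05 and 0.09. Rab24, linked to autophagy, was 0.21 ± 0.18 (SE) on 1421873_s_at, without overlap, and 0.11 without KO 1. The groups overlapped on its other tested probe set, 1421872_at (0.19 ± 0.21, SE). Rab20, an endosomal Rab, had the largest positive difference among the members, 0.48 ± 0.34 (SE) with overlapping groups, and 0.19 without WT 1. In the ER and Golgi route, Rab1a differed by -0.18 and -0.40, and Rab6a by -0.28, -0.24 and -0.20. Of the Rab6a probe sets 1447776_x_at had the KO mice all below the controls, at 10.77, 10.90 and 10.96 against 11.38, 10.99 and 11.11, a difference that was -0.17 without WT 1. Rab43 was 0.18 ± 0.16 (SE) on 1425333_at, with the KO mice above the controls, and -0.03 on its other tested probe set.

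**Figure D2:**
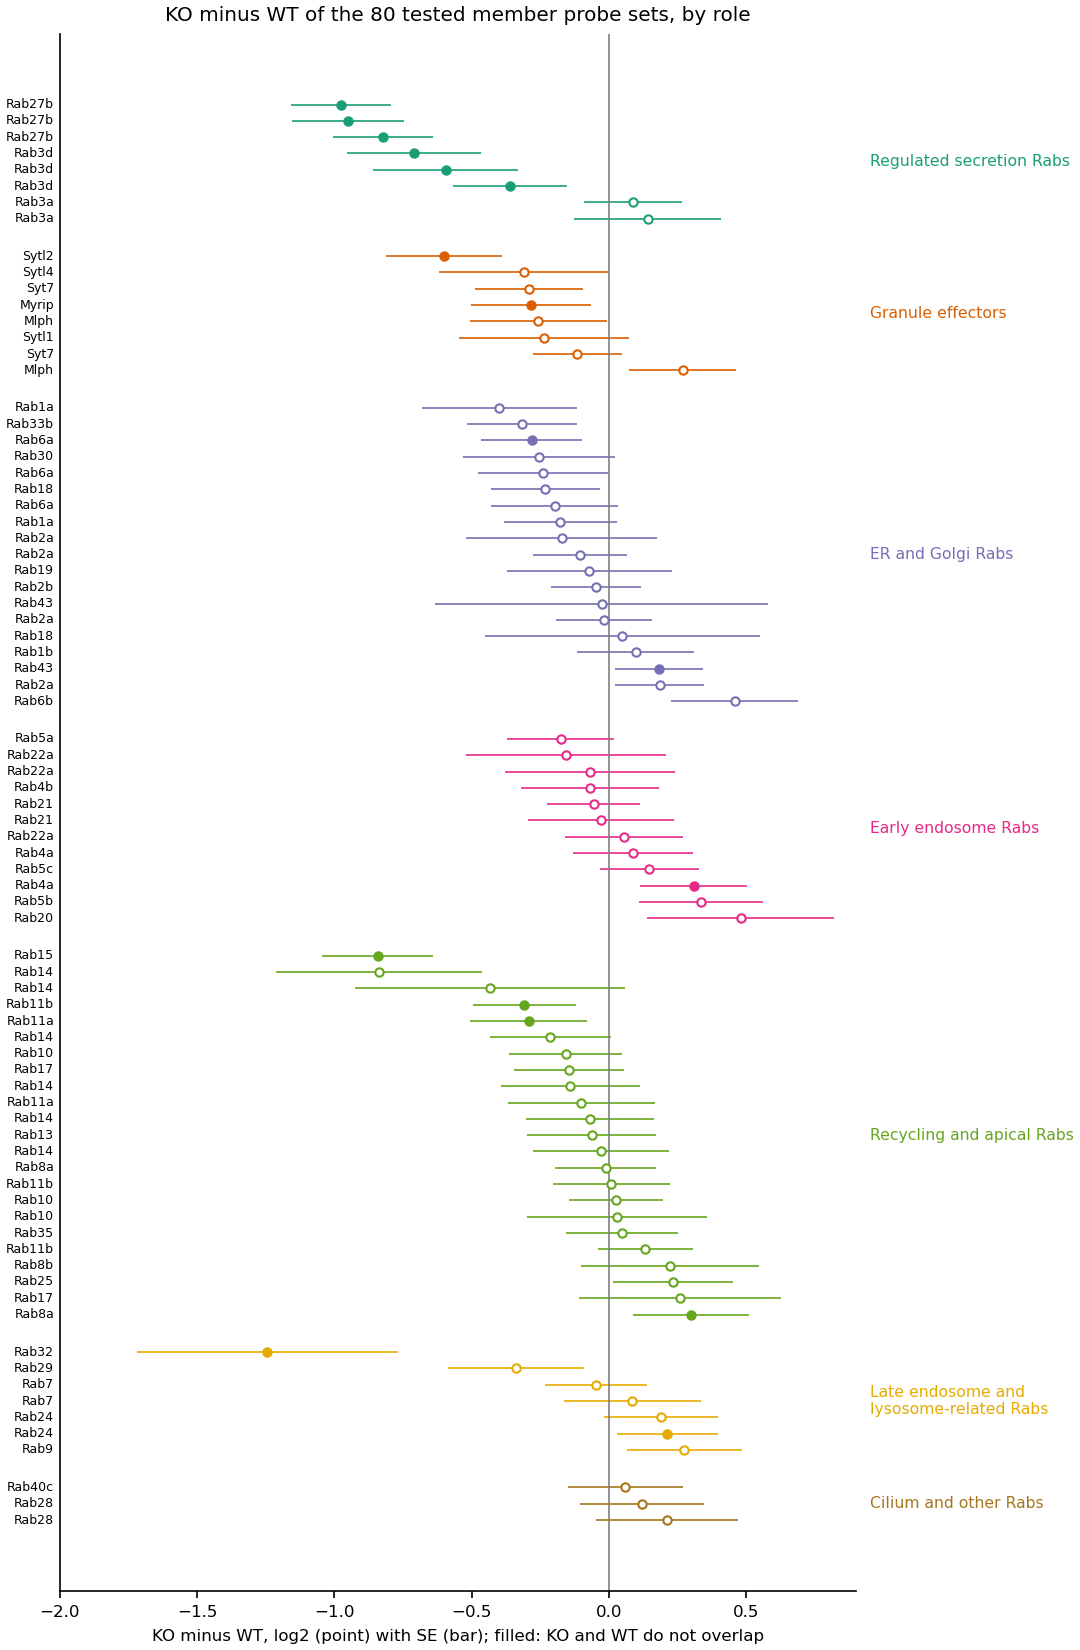
KO minus WT on the log2 scale (horizontal axis, point with SE bar) for the 80 tested member probe sets, 1 line each, grouped by role; filled points are probe sets whose KO and WT mice do not overlap. Rab27b, Rab3d, Sytl2, Rab15 and Rab32 lie farthest to the left among the filled points, and most other points lie within 0.5 of 0.

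**Figure D3:**
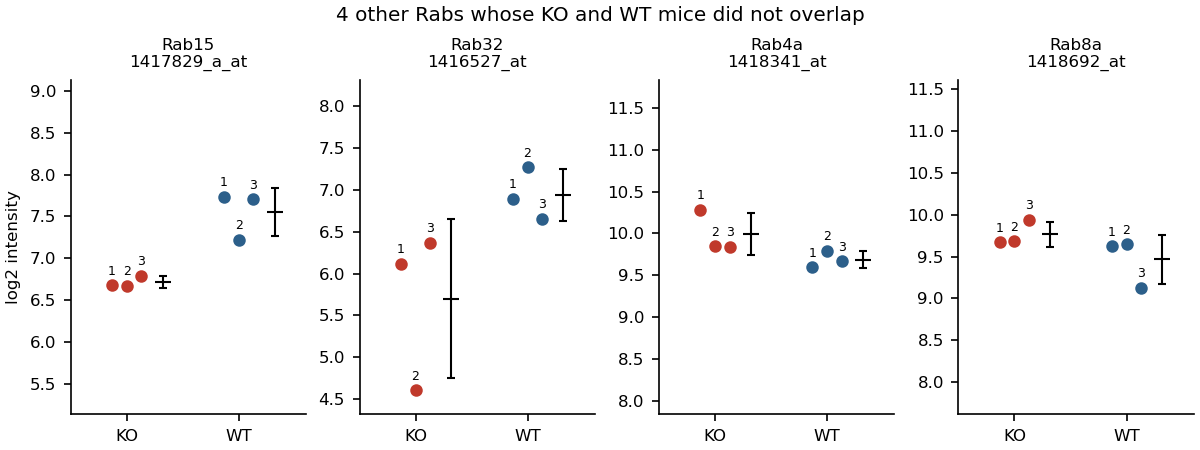
Log2 intensity (vertical axis) of Rab15, Rab32, Rab4a and Rab8a in KO mice (left) and WT mice (right); numbers are the mouse and bars the mean ± SD of 3 mice. Rab15 and Rab32 are lower in KO with KO 2 far down for Rab32, and for Rab8a only WT 3 stands clear of the KO mice. Rab4a (1418341_at here) and Rab8a (1418692_at here) each had another tested probe set, on which the groups overlapped.

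Most single differences were not steady when 1 array was left out. Of the 80 tested member probe sets 71 differed by less than 0.5 in either direction, and a difference near 0 changes sign easily. With each array left out in turn, 37 of the 80 tested member probe sets changed sign at least once, and another 35 kept their sign but moved by over 1.5 times. The remaining 8 stayed within 1.5 times throughout, and they were the 3 of Rab27b, 1418891_a_at of Rab3d, 1421594_a_at of Sytl2, 1417829_a_at of Rab15, 1425333_at of Rab43 and 1418621_at of Rab2a. Rab27b was chosen for its difference on these same arrays, so its steadiness here adds no support. The same counts were not made over all tested probe sets.

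Where a gene had several tested probe sets they did not always point the same way. Of the 22 such genes, 8 had only negative differences (Rab27b, Rab3d, Rab1a, Rab6a, Rab11a, Rab14, Rab21 and Syt7), 4 had only positive ones (Rab3a, Rab4a, Rab24 and Rab28) and 10 had both. The median SD within groups was 0.24 for the tested member probe sets and 0.33 for all tested probe sets. The 64 probe sets under the filter had differences between -0.34 and 0.39, and 43 of them stayed under 3 in every mouse. They included every probe set of 20 genes, among them Rab23, Rab33a, Rab34, Rab36, Rab38, Rab39 and Rab44.

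Other parts of the same machinery were read from gene lists, with 1 probe set for each gene. Of 21 other Rab effectors 13 were tested, and 0 passed the adjusted threshold in either direction (limma; 2 at an unadjusted p under 0.05), with 10 negative differences and a median of -0.06 (-0.17 to 0.01 with each array left out). Those 2 were Cadps2, a priming factor of dense-core granules, and Myo5c, a myosin that carries exocrine granules. Cadps2 read 7.80, 7.26 and 7.56 in KO mice, against 8.13, 8.28 and 8.37 in WT mice, a difference of -0.72 ± 0.20 (SE; limma adjusted p = 0.999). Myo5c read 7.70, 7.73 and 7.57 in KO mice, against 8.61, 7.90 and 8.19 in WT mice, a difference of -0.57 ± 0.22 (SE; limma adjusted p = 0.999). In both genes every KO mouse lay below every WT mouse. Myo7a, a myosin that binds Myrip, differed by -0.25.

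Among 13 tested exocytic SNAREs and their partners, 0 passed in either direction (1 at an unadjusted p under 0.05), the median was 0.01 (-0.09 to 0.13 with each array left out) and 7 were positive. The fusion protein gene Stx2 read 5.38, 4.67 and 4.58 in KO mice, against 3.98, 4.35 and 4.19 in WT mice, a difference of 0.70 ± 0.26 (SE; limma adjusted p = 0.999). Stx4a differed by 0.30, with the KO mice above the controls, and Cplx1 by 0.56, mainly through KO 1. Vamp8, the vesicle SNARE of exocrine granules, differed by 0.12, its partner Snap23 by 0.04, and the Munc18 form Stxbp2 by 0.11. All 9 exocyst genes were tested, with 0 passing in either direction (0 at an unadjusted p under 0.05) and a median of -0.11 (-0.16 to -0.07 with each array left out). Exoc5 (-0.38), Exoc2 (-0.29) and Exoc7 (0.29) had the smallest p of the exocyst. Of 16 tested genes for prenylation, recycling and regulation of Rabs, 0 passed (1 at an unadjusted p under 0.05) and the median was 0.05 (-0.02 to 0.10 with each array left out). Rabggtb, a subunit of the enzyme that attaches the lipid anchor to Rabs, read 9.36, 9.81 and 9.79 in KO mice, against 9.09, 8.76 and 9.29 in WT mice (0.60 ± 0.23, SE; limma adjusted p = 0.999). Rabgef1, an activator of Rab5, differed by 0.28 and the Rab escort gene Chm by -0.22.

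Markers of the granule-bearing cells differed between the groups to unequal extents. In such bulk samples, fewer cells of a type and less RNA in each cell cannot be told apart. Of 10 tested Paneth markers 9 were negative, with a median of -0.82 (-1.23 to -0.65 with each array left out). Their mean level over the 11 genes on the array was 10.9 to 12.4 in KO mice and 13.0 to 13.4 in WT mice. The lowest mean, 10.9 in KO 1, was pulled down by Defa31. That gene read 2.95 in KO 1, against 14.7 in KO 2, 16.5 in KO 3 and 15.9 to 16.2 in WT mice. Mmp7, which activates alpha-defensins, differed by -4.71, and Lyz1 by -0.75, while Ang4 differed by 0.06. Goblet markers had a median of -0.18 over 11 tested genes (-0.02 without KO 2) and overlapped, at 12.1 to 12.3 in KO mice and 12.1 to 12.4 in WT mice, with Muc2 at 0.04 and the secretory fate factor Atoh1 at -0.76. Enteroendocrine markers had a median of -0.23 over 11 tested genes (-0.41 without WT 1 and -0.05 without WT 3), with mean levels of 7.68 to 8.04 in KO mice and 7.77 to 8.39 in WT mice. Each of these lists had 0 genes past the adjusted threshold in limma (5 Paneth, 1 goblet and 2 enteroendocrine genes at an unadjusted p under 0.05).

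Mast cells use Rab27b too. Of the 10 mast cell markers 7, including Cpa3, Tpsb2, Ms4a2 and Cma1, lay at 2.97 or less in every mouse, and the 3 tested were Mcpt1 (-1.16), Mcpt2 (-0.66) and Kit (-0.08, also made by crypt cells). The mean level over the mast cell list was 3.73 to 3.83 in KO mice and 3.85 to 4.12 in WT mice. Leukocyte markers were mostly higher in KO, with 8 of 9 tested genes positive and a median of 1.004 (0.39 without WT 1, then with 7 of 9 positive). Their mean levels were 5.83 to 6.62 in KO mice and 4.61 to 6.09 in WT mice. Lyz2 went the other way (-1.13), reading 12.98, 12.88 and 13.18 in KO mice and 14.02, 13.99 and 14.42 in WT mice, without overlap. Every other leukocyte marker on the array lay at 9.76 or less in every mouse. The Paneth marker Lyz1 also had every KO mouse below every WT mouse (-0.75), and which cells gave the Lyz2 signal was not tested. Lyz2 was the only tested gene of the leukocyte list at an unadjusted p under 0.05 (limma adjusted p = 0.443). Enterocyte markers had a median of 0.12 over 9 tested genes (-0.05 to 0.27 with each array left out), at 14.3 to 14.6 in KO mice and 13.7 to 14.3 in WT mice. The part of these cell types in the Rab27b, Rab3d, Sytl2, Rab15 and Rab32 values was not tested.

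**Figure D4:**
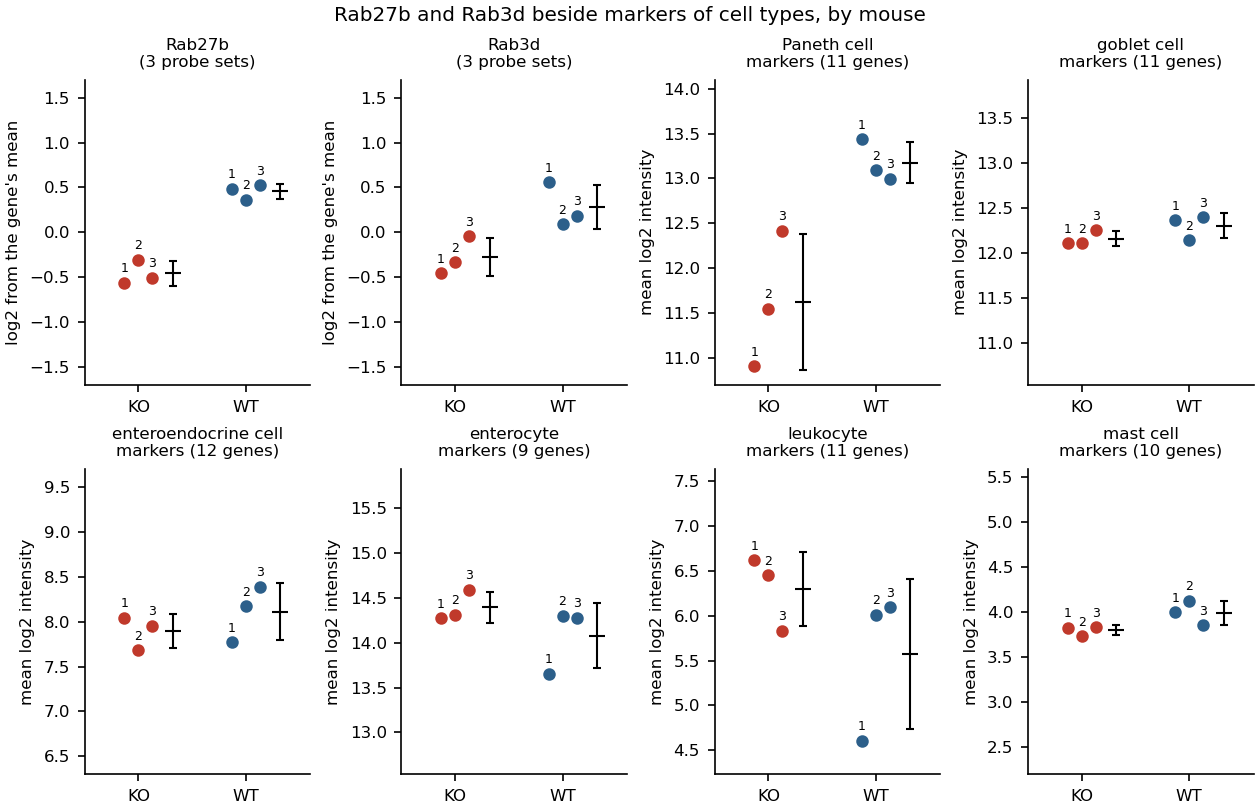
Rab27b and Rab3d (log2 distance from the mean of the 6 mice, averaged over 3 probe sets) and the mean log2 intensity of 6 marker lists, with KO mice left and WT mice right, numbers for the mouse and bars for the mean ± SD of 3 mice; all panels span the same number of log2 units. KO and WT mice are apart for Rab27b, Rab3d, the Paneth list and, narrowly, the mast cell list, and they overlap for the other 4 lists.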

How the data were processed

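Total RNA of jejunal crypts from 6 mice was hybridised to 1 single-colour array each. Values for 45101 probe sets were deposited on a log2 scale; the authors made them with GCRMA, per the submitters' processing notes, which also name limma. No version is stated there. GCRMA compresses differences near the floor. All 6 columns were used, with 0 columns of other samples. Array controls (64) were left out. Symbols came from the platform annotation (34945 probe sets with 1 symbol, 932 with several, 9160 with none), and all 144 member probe sets matched RefSeq by gene identifier, with 0 symbols changed. Members, gene lists and naming rule were chosen with earlier results of these data known. Named are all tested probe sets of granule Rabs and effectors, other Rabs with the largest differences whose groups did not overlap, 10 fixed Rabs (Rab1 and Rab6 taken as Rab1a and Rab6a), and up to 3 genes of smallest p in each pathway list. Granule probe sets under the filter are named only in part, and Sytl3 and Sytl5 had no probe set under a single symbol. Other genes were picked after their values were seen.

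KO minus WT was fitted in limma 3.58.1 (R 4.3.3; lmFit, eBayes, two-sided, Benjamini-Hochberg over 18108 probe sets of mean at least 4, threshold 0.05, 4 residual and 2.59 prior degrees of freedom), and the script was tested on simulated data. The labels do not say which mice share a litter. Each p-value sets a difference against the spread between mice within the groups, moderated by limma over all tested probe sets. With 3 arrays per group the precision is limited. KO and WT share the numbers 1 to 3. Deviations of same-numbered mice correlated at -0.05, -0.29 and 0.03, and the numbers were not taken as pairs. With 3 mice per group these correlations cannot exclude pairing. Alternatives were a replicate block, other filters, other normalizations, a trended and robust prior, array weights, 1 probe set per gene, terms for Y-linked signal and for the Gapdh difference, and each array left out.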

Additional observations from a re-analysis of the deposited data

How the results depend on the processing

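The number of member probe sets past an adjusted p of 0.05 in limma was 0 under every alternative listed above, each array left out included, with 4 to 9 at an unadjusted p under 0.05, where 2.47% to 6.79% of all tested probe sets lay. With array weights these were 8 of 80 members and 6.79% of all, and with no filter 8 of 144 and 2.47%. The smallest adjusted p of any member under an alternative was 0.195 (limma with array weights), on Rab27b 1417215_at. Rab27b was chosen on this contrast, so nothing is read from that value. Over all probe sets the number called was 2, against 0 with a replicate block, 0 with no filter, 1 with a filter at 6, 4 under quantile normalization, 11 with array weights, 0 with a term for Y-linked signal, 0 with a term for the Gapdh difference, and 0 to 16 over the arrays left out. The mean Rab27b difference of -0.92 was unchanged with the replicate block and stayed between -0.99 and -0.82 otherwise, except -0.70 with no filter, where its probe set at the floor joins the mean. The median of the members was -0.07, also with the replicate block, -0.15 with the Gapdh term, -0.098 under quantile normalization, -0.031 with array weights, -0.027 with the Y-linked term and -0.015 with no filter (each array left out: -0.14 to -0.032); the cause was not tested. Chosen after seeing the data were counts of member probe sets whose groups do not overlap with an array left out, which gave 14 to 19 with all KO below all WT (6.48% to 10% of all tested) and 6 to 9 with all KO above (8.1% to 14.1% of all tested), and list medians with an array left out. Of 80 tested members, 42 kept their sign under every alternative in which they were tested. Of 1227 single values 19 moved by 1 SD or more. Array signal limits the rest: 64 member probe sets were too near the floor to be compared. Whether same-numbered mice share more than a number is not given by the labels, and the block called 0 probe sets over all.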
